A study of Mus musculus with 6 samples.

Results

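Cytoplasmic intermediate filaments are the rope-like part of the cytoskeleton, built from a large gene family whose members are switched on by cell type. Keratins of type I and type II pair with each other in epithelia, vimentin is the type III protein of mesenchymal and many cultured cells, and neurofilament proteins, alpha-internexin and nestin are type IV proteins of neurons and their progenitors. The genes described here are 9 of the 24467 genes in the count table: Nefl, Nefm, Ina, Vim, Nes, Krt8, Krt18, Krt19 and Krt7. They were picked by name, with their levels in these samples already known, and found by Entrez ID. Their levels by group, and the differences between groups that follow from them, are therefore given as a description without a p-value. Of the 9, 8 passed the filter on low counts that left 14771 genes for testing, and Krt7 did not.

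The samples are mouse embryonic stem (ES) cells, which are grown from the inner cell mass of the blastocyst. The control is 1 clone whose titles give it floxed (F/F) alleles of Cbx5, which codes for HP1 alpha, and Cbx1, which codes for HP1 beta, and whose genotype label is WT. Clone 1 and clone 2 are a pair of clones labelled as double knockout (DKO) of both genes. HP1 proteins bind methylated histones of heterochromatin. Every group had 2 libraries and was cultured in medium with serum replacement and leukaemia inhibitory factor and inhibitors of GSK3 (CHIR99021, 3 µM) and MEK (PD184352, 0.8 µM). How and when the genes were deleted is not given in the labels. As the control is a single clone, effects of genotype and of clone cannot be told apart. No label ties the replicates of a clone to different cultures, so p-values measure the spread between these libraries, which may be technical.

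Libraries held 24628872 to 34641560 counted reads. Cbx5 in the DKO libraries was at 24.4% and Cbx1 at 20.3% of the control mean, so that reads of both genes remained, and the labels do not state which exons were deleted. The 10 ES cell markers summed to 5050 to 5290 CPM (counts scaled to the total of the library) in the control, 5060 to 5160 in clone 1 and 5090 to 5380 in clone 2. In DKO against control 8 of these markers did not pass the test, Nanog rose and Tdgf1 fell (both named after their values were seen). Of all tested genes 5.06% were called higher and 3.62% lower in this comparison. Nanog, with log2 changes of 0.27 in clone 1 and 0.39 in clone 2, lies on chromosome 6, whose median was higher by 0.44 and 0.5. None of the 9 genes lies on that chromosome. CPM is used for a gene across libraries, and CPM per kb of gene width wherever levels of different genes are set side by side.

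The members covered a wide range of levels. Vim was the most abundant, at 225 CPM per kb over the 6 libraries, and ranked 299 of 14771 tested genes by mean CPM. Nefl followed at 29.9 and Nefm at 16.5 CPM per kb. Ina at 3.56, Nes at 3.41, Krt18 at 2.42 and Krt8 at 2.09 CPM per kb formed a lower group. Krt19 was lower still at 0.485 CPM per kb, and Krt7 at 0.0393 CPM per kb was close to the limit of detection. The deposited gene width is below the GENCODE M21 exon length for Vim (2325 and 4743 bases) and Krt7 (6333 and 7049 bases). Their values per kb depend on this width, while for the other 7 genes the widths are equal. The order of neighbours in this list was not the same in every group. Ina was above Nes in the control (5.33 and 3.66 CPM per kb), level with it in clone 1 (3.31 and 3.28) and below it in clone 2 (2.06 and 3.30). Krt18 and Krt8 did not differ beyond their spread, since the ratio of their levels per kb was 1.3 and 0.928 in the control libraries, 0.893 and 1.43 in clone 1, and 1.85 and 1.01 in clone 2. Nefm stayed below Nefl in all 6 libraries, with a ratio of 0.476 to 0.601.

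**Figure D1:**
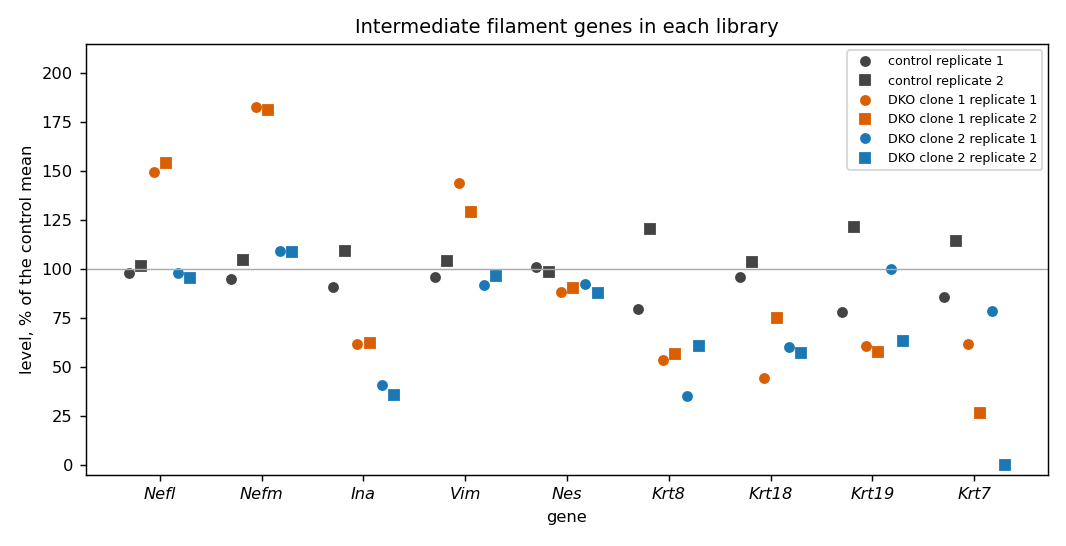
Level of each of the 9 genes in each library as a percentage of the mean of the 2 control libraries (vertical axis), with control libraries in grey, clone 1 in orange and clone 2 in blue. Nefl, Nefm and Vim are above the control in clone 1 and near 100% in clone 2, while Ina, Krt8 and Krt18 are below every control library in all 4 DKO libraries.

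The neurofilament genes Nefl and Nefm were higher in clone 1 than in the other 4 libraries. Nefl codes for the light subunit, on which neurofilaments are assembled (Entrez 18039, GRCm38 chromosome 14, 68083863 to 68089095). Its level was 85.4 and 88.6 CPM in the control, 130.2 and 133.8 CPM in clone 1, and 85.1 and 83.3 CPM in clone 2. Clone 1 stood at 152% of the control mean, clone 2 at 96.8%, and the libraries of clone 1 did not overlap with any other. The libraries of clone 1 stood apart from the 4 others in this way for 24.3% of all tested genes, 12.5% on the higher side. Nefm codes for the medium subunit, whose long tail projects from the filament (Entrez 18040, chromosome 14, 68119545 to 68125004). It was at 69.6 and 76.9 CPM in the control, 134.0 and 133.4 CPM in clone 1, and 80.2 and 79.9 CPM in clone 2. Clone 1 was at 182% of the control mean and clone 2 at 109%, so that both clones lay above the control libraries, clone 2 by little. Both clones lay above the control libraries for 16.9% of all tested genes. The log2 change against control was 0.60 (SE 0.0671) in clone 1 and -0.05 (SE 0.0676) in clone 2 for Nefl, and 0.87 (SE 0.072) and 0.13 (SE 0.0724) for Nefm. Clone 2 against clone 1 gave -0.65 (SE 0.0676) and -0.74 (SE 0.0722). After every chromosome was set to a median of 0, the clone 2 values became 0.09 for Nefl and 0.26 for Nefm, since chromosome 14 as a whole was shifted by -0.13 in that clone.

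The counts of these neighbours may not be independent. They lie 30.4 kb apart on opposite strands, and in GENCODE M21 their exons overlap by 1108 bases, which are 32.8% of the Nefl and 19.2% of the Nefm exon bases. The gene widths in the deposited table equal the GENCODE exon lengths of both genes. Whether the counting used strand is not stated in the labels, and without strand, reads from these bases cannot be assigned to 1 gene.

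Ina, the gene of alpha-internexin, which co-assembles with the neurofilament subunits, was lower in both clones and lowest in clone 2 (Entrez 226180, chromosome 19, 47014681 to 47025327). It was at 15.7 and 18.9 CPM in the control, 10.7 and 10.8 CPM in clone 1, and 7.11 and 6.22 CPM in clone 2. The 3 groups did not overlap, where clone 1 and control did not overlap for 55.6%, clone 2 and control for 56.8% and the clones for 51.2% of all tested genes. Clone 1 held 62.1% and clone 2 38.6% of the control mean, log2 changes of -0.69 (SE 0.135) and -1.37 (SE 0.142), and clone 2 was lower than clone 1 by a log2 difference of -0.69 (SE 0.146). In GENCODE 14.1% of the Ina exon bases overlap Nt5c2 on the other strand, and Nt5c2 had log2 changes of 0.13 and 0.06.

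The mix of subunit transcripts of neuronal filaments stood at different values in the 3 groups. Nefh, the heavy subunit and not one of the 9 genes, averaged 65.0 ± 2.53 CPM for the control libraries (SD, n = 2), 32.7 ± 4.33 for clone 1 and 40.5 ± 5.06 for clone 2. The level of Nefh per kb over that of Nefl averaged 0.632 ± 0.00846 for the control libraries (SD, n = 2), 0.21 ± 0.0238 for clone 1 and 0.407 ± 0.057 for clone 2. In single libraries this ratio was 0.626 and 0.638, then 0.193 and 0.226, then 0.367 and 0.448, so that the 3 groups did not overlap. For Ina the ratio to Nefl was 0.207 ± 0.0219 in the control, and it was nearly the same in clone 1 (0.0847 ± 0.000979) and clone 2 (0.0825 ± 0.00648). For Nefm it averaged 0.492 ± 0.0221 for control, 0.592 ± 0.0131 for clone 1 and 0.556 ± 0.00724 for clone 2. These ratios are taken within a library and do not depend on how libraries are scaled.

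**Figure D2:**
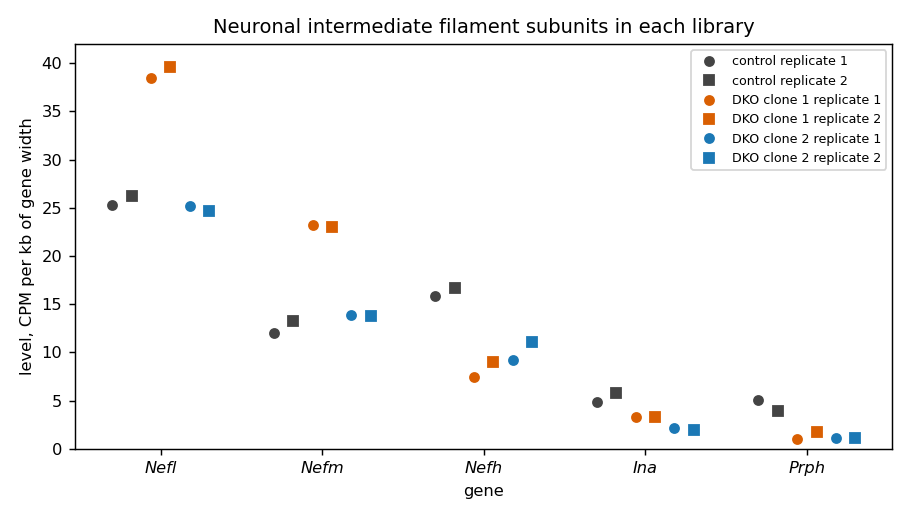
Level of neuronal intermediate filament genes in CPM per kb of gene width (vertical axis) in each library, with control in grey, clone 1 in orange and clone 2 in blue. In the control Nefh lies above Nefm, and in clone 1 and clone 2 it lies below Nefm.

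Neuron markers did not move as 1 group beside these genes. In clone 1 against control 3 of the 9 tested neuron markers rose (Stmn2, Stmn3 and Ncam1), 3 fell (Gap43, Elavl3 and Map2) and 3 did not pass. The share of all tested genes called was 8.79% for higher and 6.47% for lower in that comparison. In clone 2 against control Stmn3 and Ncam1 rose and Map2 fell, where 7.89% of all tested genes were called higher and 7.08% lower. The 12 markers summed to 342 to 349 CPM in the control, 411 to 418 in clone 1 and 345 to 359 in clone 2. Most of that sum was Stmn2, at 223 and 223 CPM in the control, 282 and 287 in clone 1, and 217 and 230 in clone 2. Dcx, Snap25 and Syt1 were too low to be tested. The part of neuron-like cells in the levels of Nefl and Nefm was not tested, and in bulk RNA fewer cells of a type and less RNA per cell cannot be told apart. These marker genes are named after their values were seen.

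Vim, the gene of vimentin, was higher in clone 1 and close to the control in clone 2 (Entrez 22352, chromosome 2, 13574311 to 13582826). Its level was 456 and 494 CPM in the control, 683 and 614 CPM in clone 1, and 437 and 459 CPM in clone 2. The libraries of clone 1 lay above the other 4, as for 12.5% of all tested genes, and those of clone 2 overlapped with the control. Clone 1 was at 136% of the control mean and clone 2 at 94.3%, with log2 changes of 0.45 (SE 0.0759) and -0.09 (SE 0.0759), and the log2 difference of clone 2 against clone 1 was -0.53 (SE 0.0761). Over all 4 DKO libraries the log2 change was 0.21 (SE 0.16), and it was 0.08 without clone 1 replicate 1. Markers of fibroblasts and feeder cells, which make much vimentin, summed to 811 to 826 CPM in the control, 800 to 840 in clone 1 and 859 to 923 in clone 2. Of the 12, 5 could be tested, and Fn1, which ES cells also express, made up nearly all of the sum. Twist2 had no read in any library, and Col1a2, Col3a1, Postn, S100a4, Lum and Dcn were too low to be tested. Acta2 and Tagln fell in each clone against control (Acta2 with edgeR adjusted p = 6.87e-04 and 2.13e-05, Tagln with 0.0119 and 1.67e-05), and the other 3 tested markers did not pass. Of all tested genes 6.47% were called lower in clone 1 and 7.08% in clone 2. The ratio of Nefl to Vim per kb, at the deposited gene widths, was 0.123 to 0.15 in the 6 libraries.

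Nes, the gene of nestin, a long protein of neural progenitors that assembles with vimentin, was slightly lower in both clones (Entrez 18008, chromosome 3, 87971093 to 87980451). It was at 23.8 and 23.2 CPM in the control, 20.8 and 21.3 CPM in clone 1, and 21.7 and 20.6 CPM in clone 2. All 4 DKO libraries were below both control libraries, as for 16.9% of all tested genes. Their mean was 89.8% of the control mean, a log2 change of -0.15 (SE 0.0869). The chromosome around Nes moved the other way. The median log2 change over chromosome 3 was 0.28 in clone 1 and 0.08 in clone 2, and the 47 tested genes within 1 Mb of Nes had median log2 changes of 0.35 and 0.14, with 26 of them called higher in clone 1. After every chromosome was set to a median of 0, the log2 change of Nes was -0.44 in clone 1, -0.23 in clone 2 and -0.34 over both. Markers of neural progenitors summed to 41.5 to 49.4 CPM in the control, 40.3 to 41.8 in clone 1 and 30.4 to 38.3 in clone 2, and 4 of the 8 could be tested. Sox1 and Olig2 fell in clone 2 (edgeR adjusted p = 3.71e-04 and 0.00914), where 7.08% of all tested genes were called lower. Nes had a log2 change of -0.15 in that clone, and Fabp7 had no read in any library. The part of neural progenitors in the level of Nes was not tested.

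The simple epithelial keratins Krt8 and Krt18 were lower in both clones. Keratin 8 (type II) and keratin 18 (type I) form the first keratin filaments of the embryo, in the trophectoderm. Krt8 (Entrez 16691, chromosome 15, 101996711 to 102004342) was at 4.80 and 7.28 CPM in the control, 3.23 and 3.41 CPM in clone 1, and 2.13 and 3.67 CPM in clone 2. Krt18 (Entrez 16668, chromosome 15, 102028216 to 102032026) was at 4.60 and 4.96 CPM in the control, 2.12 and 3.59 CPM in clone 1, and 2.89 and 2.74 CPM in clone 2. For each gene the 4 DKO libraries lay below both control libraries, as for 16.9% of all tested genes, and the clones overlapped. The DKO mean was 51.5% of the control for Krt8, a log2 change of -0.95 (SE 0.237), and 59.3% for Krt18, a log2 change of -0.75 (SE 0.212). Single libraries weighed on these values. Leaving out control replicate 1 gave a log2 change of -1.22 for Krt8, and leaving out control replicate 2 gave -0.62. For Krt18 in clone 1 the value was -0.74 with all libraries, -0.41 when clone 1 replicate 1 was left out and -1.17 when its replicate 2 was. RefSeq lists a pseudogene of Krt8, Krt8-ps, and the labels do not state how reads that match several places were counted.

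Krt19 and Krt7 gave few reads. Krt19, a small type I keratin of simple epithelia (Entrez 16669, chromosome 11, 100140810 to 100145926), had 30 and 44 reads in the control, 19 and 18 in clone 1, and 28 and 19 in clone 2. These are 0.873 and 1.36 CPM, then 0.682 and 0.647 CPM, then 1.12 and 0.712 CPM, and the DKO libraries overlapped with the control. The log2 change was -0.50 (SE 0.354) over the 4 DKO libraries, and -0.14 without control replicate 2. Krt7, a type II keratin of ducts and trophoblast (Entrez 110310, chromosome 15, 101412403 to 101427806), had 12 and 15 reads in the control, 7 and 3 in clone 1, and 8 and 0 in clone 2. The 0 reads allow a level of up to 0.112 CPM (3 counts, counting error only). All 4 DKO libraries were below the control libraries in CPM, but this gene had too few reads to be tested.

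Keratins 8 and 18 mark several cell types that ES cultures can hold, and the lists of these types differed among themselves. Of 11 simple epithelium markers Ocln and Cgn fell in DKO against control, with edgeR adjusted p = 0.0193 and 0.034, and the other 9 did not pass, with 10 of the 11 below 0. In clone 2 against control 5 fell (Ocln, Cgn, Cldn4, Epcam and Esrp1), where 7.08% of all tested genes were called lower, and in clone 1 Ocln and Cgn fell, where 6.47% were. In DKO against control 3.62% of all tested genes were called lower and 5.06% higher. The sum of these markers was 1460 to 1550 CPM in the control, 1400 to 1440 in clone 1 and 1420 to 1480 in clone 2. Of 9 tested primitive endoderm markers Lamb1 and Col4a1 fell, with edgeR adjusted p = 0.0335 and 0.0138. Both also fell in each clone, and Dab2 fell in clone 2. The list summed to 403 to 448 CPM in the control, 366 to 381 in clone 1 and 391 to 394 in clone 2. Of 6 tested trophectoderm markers Gata3 rose in DKO against control, Gata3, Eomes and Tfap2c rose in clone 1, and Gata3 and Eomes rose in clone 2. Of all tested genes 8.79% were called higher in clone 1 and 7.89% in clone 2. Eomes had log2 changes of 0.48 and 1.27 (edgeR adjusted p = 0.0318 and 4.15e-05). The list summed to 44.8 to 51.8 CPM in the control, 57.8 to 61.0 in clone 1 and 60.4 to 64.9 in clone 2. Elf5, Hand1 and Foxa2 were too low to be tested, and Cdx2 lay between 0.161 and 0.575 CPM in all libraries. The part of such cells in the keratin levels was not tested. These marker genes are also named after their values were seen.

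The sequence before the start of 4 members is shown. Krt8, Krt18 and Ina were lower in all DKO libraries. Nes was lower in all of them too, but by less, at 89.6% of the control mean in clone 1 and 90.1% in clone 2. The sequences are RefSeq promoters on GRCm38.p6, 5′ to 3′ on the strand of the gene, limited to the stretch that no GENCODE transcript annotates as UTR. Capitals mark a GC box or an E-box on either strand. The GC box was searched as GGGCGG in the window. The letters of the E-box searched for in each promoter were CACCTG.
Krt8, chr15:102004483-102004592, minus strand: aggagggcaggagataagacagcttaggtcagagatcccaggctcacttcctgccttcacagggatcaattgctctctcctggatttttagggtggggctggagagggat
Krt18, chr15:102027966-102028179, plus strand: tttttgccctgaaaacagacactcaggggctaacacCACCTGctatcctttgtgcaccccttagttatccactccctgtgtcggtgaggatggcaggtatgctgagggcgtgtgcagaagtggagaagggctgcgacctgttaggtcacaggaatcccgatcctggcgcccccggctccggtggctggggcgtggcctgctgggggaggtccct
Ina, chr19:47014431-47014680, plus strand: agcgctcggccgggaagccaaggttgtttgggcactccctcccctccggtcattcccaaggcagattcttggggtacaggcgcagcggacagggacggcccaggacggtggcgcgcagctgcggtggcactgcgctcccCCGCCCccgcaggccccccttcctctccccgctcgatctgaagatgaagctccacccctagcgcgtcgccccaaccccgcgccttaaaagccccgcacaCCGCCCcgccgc
Nes, chr3:87970843-87971092, plus strand: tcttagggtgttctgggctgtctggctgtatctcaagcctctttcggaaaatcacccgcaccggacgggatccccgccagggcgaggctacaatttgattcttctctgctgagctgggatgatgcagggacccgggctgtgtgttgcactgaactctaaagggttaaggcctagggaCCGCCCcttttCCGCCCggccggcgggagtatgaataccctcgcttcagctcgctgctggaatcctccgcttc
The table held a promoter for 6 of the 9 members. In the 250 bases before the start, Ina has 25 CpG dinucleotides, Nes 15, Krt7 16, Krt18 12, Vim 8 and Krt8 3, against a median of 6 over 32851 promoters. GC boxes were found for Ina, Nes and Krt7, and 32.7% of all promoters hold one in this window. The E-box was found for Krt8, Krt18 and Krt7, against 17.2% of all promoters, and the match of Krt8 lies outside the stretch shown. Vim has a match to the TATA box, searched for as TATAAA, which 12.4% of all promoters hold. It also has matches to the CCAAT box, which 33.8% of them hold. These matches describe letters and not binding.

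Krt8 and Krt18 lie 23.9 kb apart, and Krt18 ends 1.16 Mb before Cbx5, one of the deleted genes. Among the 31 other tested genes within 1 Mb of the pair the median log2 change was -0.07 in clone 1 and -0.06 in clone 2. In clone 1 Acvr1b and Nr4a1 were called higher and Eif4b lower, and in clone 2 Acvr1b was called higher and Eif4b, Pcbp2, Map3k12 and Atp5g2 lower. The 3 tested neighbours of Nefl and Nefm within 1 Mb, Cdca2, Kctd9 and Dock5, had log2 changes of -0.05 to 0.12 in clone 1 and -0.19 to -0.01 in clone 2. Of 8 neighbours of Vim, St8sia6, a sialyltransferase gene, was called higher in both clones, with log2 changes of 1.04 and 0.55. The 34 neighbours of Ina had medians of 0.08 and 0.06, where Ina was at -0.69 and -1.37. Neighbours are named after their values were seen.

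**Figure D3:**
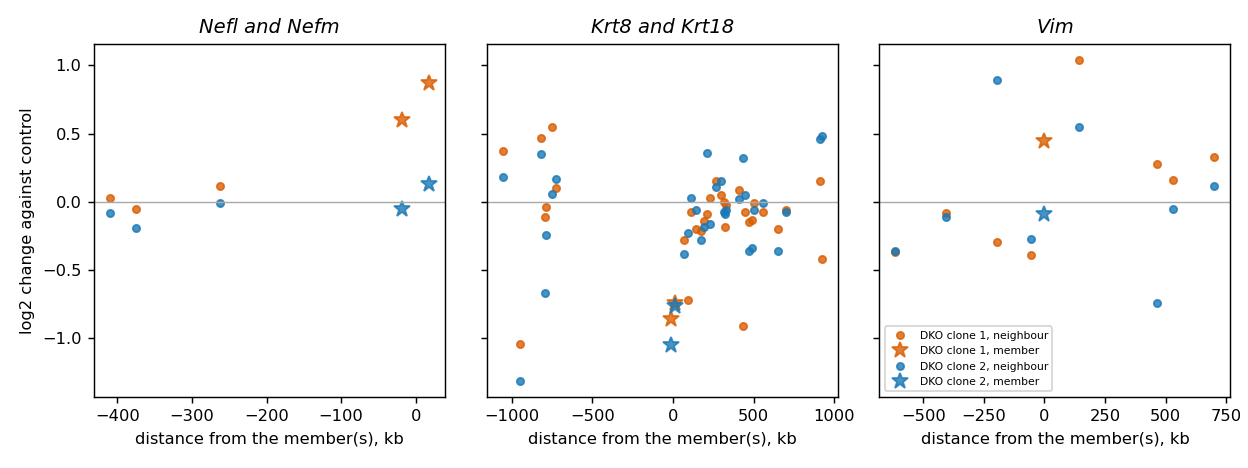
Log2 change against control (vertical axis) of tested genes within 1 Mb, by distance of their midpoints in kb from the members (horizontal axis), for clone 1 in orange and clone 2 in blue. Stars are members and circles their neighbours, and the stars of Nefl and Nefm in clone 1 and of Krt8 and Krt18 in both clones stand apart from the medians of the neighbours, which lie between -0.08 and 0.03, although single neighbours of Krt8 and Krt18 reach -1.04 in clone 1 and -1.31 in clone 2.

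Called by the fit over all genes, with an adjusted p under 0.05, were 2 of the 8 tested members as lower in DKO against control (Ina and Krt8), where 3.62% of all tested genes were called lower and 8.69% in either direction. In clone 1 against control 3 members were called higher (Nefl, Nefm and Vim) and 3 lower (Ina, Krt8 and Krt18), where 15.3% of all tested genes were called. In clone 2 against control, where 15.0% were called, Ina, Krt8 and Krt18 were called lower. In clone 2 against clone 1, where 6.30% of all tested genes were called and 3.77% called lower, the 4 members called lower were Nefl, Nefm, Vim and Ina. As the members were picked with these levels known, nothing is read from these counts. The comparisons of each clone with control share the 2 control libraries. The median log2 change of the 8 tested members was -0.33 in DKO against control, -0.42 in clone 1 and -0.22 in clone 2, beside medians of all tested genes of 4e-04, -0.0055 and -9e-04. The libraries of DKO and control did not overlap for 5 of the 8, which were Nefm on the higher and Ina, Nes, Krt8 and Krt18 on the lower side, where 33.8% of all tested genes did not overlap, 16.9% in each direction.

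The rest of the family, which was not among the genes picked, was examined with the test. This list, too, was chosen with earlier results of these data known. Its adjusted p-values may therefore not be independent of that choice. Of 57 other cytoplasmic intermediate filament genes, 50 of them keratins, 16 had no read in any library and 10 passed the filter. Prph and Nefh fell in DKO against control and the other 8 did not pass, where 3.62% of all tested genes were called lower. DKO and control libraries did not overlap for 7 of the 10, all on the lower side, where 16.9% of all tested genes lay. Prph codes for peripherin, a type III protein of peripheral neurons (Entrez 19132, chromosome 15, 99053579 to 99058978). It went from 10.1 and 7.81 CPM in the control to 2.01 and 3.45 CPM in clone 1 and 2.29 and 2.17 CPM in clone 2. All 4 DKO libraries were below the control, at 27.7% of its mean, with a log2 change of -1.85 (SE 0.218, edgeR adjusted p = 0.00113), and the call held without any 1 library (adjusted p = 7.58e-04 to 0.0355). Nefh (Entrez 380684, chromosome 11, 4938754 to 4948064) went from 63.2 and 66.8 CPM to 29.6 and 35.8 CPM in clone 1 and 36.9 and 44.1 CPM in clone 2. The DKO mean was 56.3% of the control, a log2 change of -0.83 (SE 0.127, edgeR adjusted p = 0.00315, and 0.0586 without control replicate 2). Against control each clone passed for both genes, and the test between the clones gave adjusted p = 0.602 for Prph and 0.122 for Nefh, which became 0.0337 with no filter on low counts.

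Krt42, Krt17 and Synm were each called in 1 clone, and the test of the difference between the clones did not pass for them. Of the 10 tested family genes 3 were called lower in clone 1 and 4 in clone 2, where 6.47% and 7.08% of all tested genes were. Krt42, a type I keratin, was at 5.18 and 3.93 CPM in the control, 1.79 and 1.62 CPM in clone 1 (edgeR adjusted p = 0.0011) and 2.69 and 3.30 CPM in clone 2 (0.0847), with 0.0724 between the clones. With no filter on low counts Krt42 passed in clone 2 (0.0397), between the clones (0.0188) and in DKO against control (0.0235). Krt17, its neighbour on chromosome 11, was at 1.57 and 1.61 CPM in the control, and fell to 0.361 and 0.787 CPM in clone 2 (edgeR adjusted p = 0.0311, between the clones 0.42). Without control replicate 1 and 2 its adjusted p was 0.1 and 0.111, and without clone 2 replicate 1 it was 0.215. Synm, the gene of synemin, a large partner of desmin and vimentin, was at 7.69 and 7.50 CPM in the control and 5.38 and 4.99 CPM in clone 2 (edgeR adjusted p = 0.0275, between the clones 0.422). Its call ended without either control library (0.0999 and 0.0853) and without either library of clone 2 (0.0814 and 0.164). Des, the gene of desmin, the muscle type III protein, was at 4.92 and 7.03 CPM in the control and 5.64 to 7.05 CPM in the DKO libraries (adjusted p = 0.784 in edgeR). Keratin genes of 1 cluster share sequence, so that reads of Krt17 and Krt42 may in part belong to relatives. The 10 tested genes had a median log2 change of -0.88, and 7 of them were below 0.

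**Figure D4:**
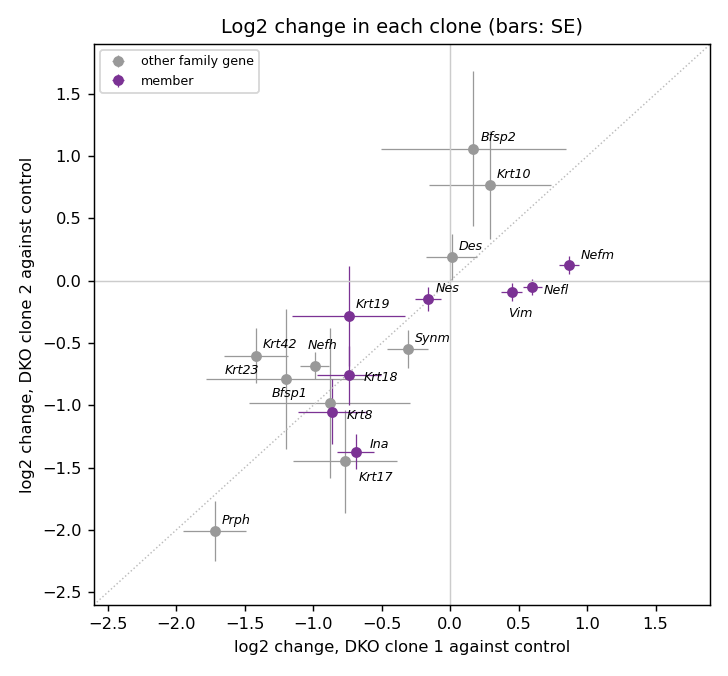
Log2 change in clone 1 against control (horizontal axis) and in clone 2 against control (vertical axis) for the 8 tested members in purple and 10 other family genes in grey, with SE as bars and equal changes on the dotted line. Both axes use the same control libraries, and Nefl, Nefm and Vim are the genes with a log2 change of 0.45 or more in clone 1 and a value between -0.09 and 0.13 in clone 2.

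Proteins that tie intermediate filaments to junctions and other structures, and their chaperones, were examined as a list of 17 tested genes. Dsp fell in DKO against control, where 3.62% of all tested genes were called lower and 5.06% higher, and the other 16 did not pass. In clone 1 Jup rose and Dsp and Macf1 fell, and in clone 2 Plec and Ppl fell. Between the clones Macf1 was higher and Plec and Fam83h were lower in clone 2. Of all tested genes 8.79% were called higher and 6.47% lower in clone 1, and 7.89% and 7.08% in clone 2. Between the clones 2.53% were called higher and 3.77% lower in clone 2. Genes of this and the next list that were called in single clones are named after their values were seen. Dsp codes for desmoplakin, which anchors keratin filaments at desmosomes, and went from a control mean of 10.1 ± 0.0463 CPM (SD, n = 2) to 6.17 and 5.14 CPM in clone 1 and 7.11 and 7.54 CPM in clone 2. Its log2 change was -0.64 (SE 0.162, edgeR adjusted p = 0.0357), and the call ended without control replicate 1 (0.223), control replicate 2 (0.21), clone 1 replicate 1 (0.0626) and clone 1 replicate 2 (0.0539). Evpl, the gene of envoplakin, had a log2 change of -0.54 (adjusted p = 0.213 in edgeR). Jup, the gene of plakoglobin, had 0.24 (adjusted p = 0.112) and the small heat shock gene Hspb1 0.17 (adjusted p = 0.252). The median over the list was -0.07.

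Transcription factors known to act on keratin, vimentin or neurofilament genes were examined as a further list, chosen with earlier results of these data known. Of 18 tested Tfap2a and Gata3 rose, Twist1 fell and 15 did not pass in DKO against control. In that comparison 5.06% of all tested genes were called higher and 3.62% lower. Tfap2a, a factor of surface ectoderm and trophoblast, went from 1.14 and 1.30 CPM to 4.67 and 3.48 CPM in clone 1 and 4.58 and 3.11 CPM in clone 2 (log2 change 1.70, SE 0.252, edgeR adjusted p = 0.0028, and 0.0625 without control replicate 1). Gata3, a trophectoderm factor, went from 0.786 and 1.24 CPM to 2.87 and 3.63 CPM and 2.61 and 1.69 CPM. Its log2 change was 1.42 (SE 0.342, edgeR adjusted p = 0.029), and its call ended without control replicate 1 (0.264), control replicate 2 (0.102) and clone 1 replicate 2 (0.0562). Twist1, a mesenchymal factor, went from 2.97 and 4.09 CPM to 1.79 and 1.94 CPM and 1.45 and 1.91 CPM (log2 change -0.99, SE 0.223, edgeR adjusted p = 0.0216, which became 0.0675 when control replicate 1 and 0.255 when control replicate 2 was left out). Elf3, an epithelial factor, had a log2 change of 0.40 (adjusted p = 0.051 in edgeR), and it rose in each clone against control (0.0334 and 0.0416). In clone 1 Tfap2a, Gata3, Elf3, Tfap2c and Zeb1 rose and Twist1 and Rest fell. In clone 2 Tfap2a, Gata3 and Elf3 rose and Twist1 and Klf5 fell. Of all tested genes 8.79% were called higher and 6.47% lower in clone 1, and 7.89% and 7.08% in clone 2. DKO and control libraries did not overlap for 4 of the 18 on the higher side, among them Tfap2a and Gata3. They did not overlap for 2 on the lower side, where 16.9% of all tested genes lay on each side. The part of these factors in the keratin levels was not tested.

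For likeness of pattern, log2 CPM over the 6 libraries was compared with that of 11577 other genes. The closest to Nefm were Dpysl3 (Pearson r = 0.9987), the gene of a growth cone protein, and Adar (0.9981), and to Nefl Dock5 (0.9896), which is also its neighbour on chromosome 14. Closest to Vim were Setdb1 (0.9948), a histone methyltransferase gene, and Gipc2 (0.9941), both on chromosome 3, and closest to Ina was Zfp219 (0.9975). Adar lies on chromosome 3 as well, and the median log2 change over that chromosome was 0.28 in clone 1 and 0.08 in clone 2. The part of this shift in the likeness to Vim and Nefm was not tested. The closest to Nes was Ndrg2 (0.9978), to Krt8 Ndufs5-ps (0.9893), to Krt18 Nup35 (0.9997) and to Krt19 Eif3j1 (0.9966). These values rest on 6 points from 3 clones, share the same libraries and depth, and carry no p-value.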

How the data were processed

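RNA from 6 libraries of mouse ES cells, 2 each of 1 control clone and 2 DKO clones, was sequenced from ScriptSeq v2 libraries, per the labels' protocols. The authors deposited raw read counts per Entrez gene and a gene width. Alignment was with STAR 2.5.0a to mm10 (GRCm38), per the submitters' processing notes. Counting tool, strand setting and annotation: not given in the sources used here. Gene symbols and positions came from RefSeq on GRCm38.p6, which matched 24437 of 24467 IDs, and the 30 others took 0.389 to 1.62% of the reads.

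Counts were filtered with filterByExpr, scaled by TMM and tested with edgeR 4.0.16 in R 4.3.3 by the quasi-likelihood F test, two-sided, with Benjamini-Hochberg adjustment over 14771 genes at 0.05. DKO against control used genotype alone (4 residual degrees of freedom), and clone comparisons a fit with 3 groups (3 residual degrees of freedom). SE came from the F statistic. The fits were also run on simulated data in which both clones had the same changes. That run cannot show how the fits treat differences between clones, and no result above rests on it. Replicate libraries differed by more than sampling noise (chi-square per gene 11.5 to 41.6). Members, lists and tests were chosen with earlier results of these data known. Named were all members, Cbx5 and Cbx1, other family genes called in any comparison, the 3 of these with the highest level, up to 4 genes per list with the smallest adjusted p, and the 3 genes of closest pattern per member (mean of at least 2 CPM, prior count of 2), of which the text gives 1 or 2. Alternatives were RLE scaling, no filter, at least 1 CPM in 2 libraries, DESeq2 1.42.0, a replicate block, centring of chromosomes with at least 10 genes, and leaving out each library.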

Additional observations from a re-analysis of the deposited data

Results flagged for a closer look

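Krt19 in the 4 DKO libraries had 1 library far from the others, clone 2 replicate 1 at 1.12 CPM against 0.647 to 0.712 CPM in the other 3. The gap was 0.862 of the whole range, above Dixon's critical value for 4 samples, which chance passes in about 1 of 20 groups (5%). This check was run on all tested members and on the other named genes, so 1 flag can arise by chance. It also treats the libraries of both clones as 1 group. The gap corresponds to 28 reads against 18 or 19. Nefl lay above both control libraries in clone 1 and below both in clone 2, with a log2 difference of -0.65 for clone 2 against clone 1. This difference is given as a description, since the gene was picked with its levels known. In clone 2 Nefl was at 96.8% of the control mean, with 85.1 and 83.3 CPM against 85.4 and 88.6 CPM in the control. After every chromosome was set to a median of 0, its log2 change in clone 2 was 0.09 instead of -0.05.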

How the results depend on the processing

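In DKO against control 1283 genes were called, 58.3% of them higher, and with each chromosome centred 788, of which 42.4% were higher. In clone 1 against control the share of higher calls went from 57.6 to 47.4% with that centring. Without 1 library the counts were 246 to 1186 in DKO against control, 1292 to 2051 in clone 1 against control, 1123 to 2302 in clone 2 against control and 270 to 934 in clone 2 against clone 1. In DKO against control 246 and 313 genes were called without control replicate 1 and 2. In clone 1 against control 1292 were called without its replicate 1 and 1378 without control replicate 1. In clone 2 against control 1208 and 1123 were called without its replicate 1 and 2, and 1473 and 1380 without control replicate 1 and 2. Between the clones 394 and 580 were called without clone 1 replicate 1 and 2, and 270 and 294 without clone 2 replicate 1 and 2. The last comparison had 930 calls, and 1453 with no filter on low counts. For the other family genes, 2 calls became 1 without control replicate 2 (only Prph) and 4 without clone 2 replicate 2, and were 2 or 3 under the other alternatives. Where a clone was left with 1 library, it was assumed to vary like the other groups. Without any 1 library, Ina, Krt8 and Krt18 stayed below 0 in each clone against control, and Nefl, Nefm and Vim above 0 in clone 1. Other member values changed sign. In clone 2 against control Krt19 went from -0.28 to 0.07 without control replicate 2, and Nefl from -0.05 to 0.09 with each chromosome centred. Between the clones Krt18 went from -0.02 to 0.41 without clone 1 replicate 2, and Krt8 from -0.19 to 0.14 without clone 2 replicate 1. The replicate numbers did not pair the samples (correlation of deviations 0.028, -0.0834 and 0.026), and with the replicate block 928 genes were called in DKO against control, while Dsp (0.0689) and Gata3 (0.0544) no longer passed. In DESeq2, Krt42 (0.0206) and Elf3 (0.0209) passed in DKO against control, and Krt17 (0.0512) and Synm (0.0615) did not in clone 2. The cause of these differences was not tested. Depth limits Krt19 and Krt7, where 3 counts equal 0.0873 to 0.12 CPM.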
